A study of Drosophila melanogaster with 23 samples.

Results

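Adult heads of flies with a single working copy of Chd1 (CHD2/+, after the name of the human counterpart) were compared with wild-type heads by 3′ mRNA sequencing. The members of the comparison are 8 of the 23 samples of the series, 4 CHD2/+ libraries and 4 wild-type libraries, taken by the genotype in their labels. The study asked how heterozygous mutations in genes associated with autism spectrum disorder alter transcription, and it also sequenced ASH1L/+, WDFY3/+ and CHD8/+ heads (4 libraries each) and a CHD8/+; PPP2R5D/+ double heterozygote that is not analysed here. All heads came from flies 5 to 7 days after pupation. The CHD2/+ flies carried the null allele chd1[1] over a wild-type chromosome. The wild type was W1118. The study names W1118 as the background of its stocks only in a sentence on its deficiency stocks. The background of the chd1[1] flies, which were a gift, is thus not clear. The labels give neither the sex of the flies, nor how many heads went into a library, nor a batch for any library. Because 1 mutant stock was set against 1 control stock, the effect of the Chd1 mutation and of any other difference between these stocks cannot be told apart. The replicates are named biological replicates, so the p-values refer to the spread between such head samples.

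Chd1 is an ATP-dependent chromatin remodeler of the CHD family. Its chromodomains bind methylated histone tails, its motor assembles and spaces nucleosomes, and it travels with elongating RNA polymerase II at transcribed genes. In Drosophila it is required for the deposition of the histone variant H3.3 into paternal chromatin after fertilization, and flies without it are viable. CHD2, the related human gene used in the genotype name, is associated with epileptic encephalopathy and autism.

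The values are the normalized counts of the authors, and a change is the difference in mean log2(normalized count + 1), CHD2/+ minus wild type, estimated by limma with 1 mean per genotype over 20 libraries. A gene was tested if it reached 10 normalized counts in at least 4 of the 8 libraries, which left 8616 genes. It was called if its Benjamini-Hochberg adjusted p over all of them was below 0.05 and its change was at least 1.5-fold. Adding 1 before taking logs understates the change of weakly expressed genes.

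The normalized counts summed to between 3982753 and 6210116 in the CHD2/+ libraries and to between 4030172 and 4760607 in the wild-type libraries. Taking the most frequent value below 4 as the worth of a single read, the libraries held an estimated 2790000 to 9860000 reads in CHD2/+ and 4100000 to 6200000 in wild type. These estimates are rough, because the values may also carry factors of each gene. The median number of mapped reads per sample that the study reports is higher than all of them. The heads expressed the neuronal genes elav, nSyb, Syt1 and brp and the photoreceptor genes ninaE, trp, Arr2 and ninaC in all 8 libraries. The gut genes mex1, Jon65Aiii and betaTry were at 0 to 3.36 in CHD2/+ and at 0 to 15.9 in wild type. Both the yolk protein genes Yp1 to Yp3, made by females, and the roX1 and roX2 RNAs, made by males, were present in all 8. Their levels varied between libraries. Yp1 ran from 16182 in wild-type replicate 4 to 109678 in wild-type replicate 2. The roX1 RNA ran from 1511 in CHD2/+ replicate 2 to 6888 in wild-type replicate 4. The fat body gene Lsp2 ran from 74.1 in wild-type replicate 4 to 21450 in CHD2/+ replicate 3.

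Among the 8 libraries compared, CHD2/+ replicate 2 stood apart in cuticle genes. The mean log2 level of the 14 tested genes of the cuticle and trachea list was 7.67 in it, 5.71 to 6.07 in the other 3 CHD2/+ libraries and 5.46 to 6.16 in wild type. The chitin synthase gene kkv stood at 39.4 in that library and at 0 to 1.92 in the other CHD2/+ libraries, against 0 to 4.57 in wild type. The mean log2 level of 23 muscle sarcomere genes was also highest there, at 10.1, compared with 9.24 to 9.41 in the other CHD2/+ libraries and 8.99 to 9.58 in wild type. The trait was not particular to this library. In CHD8/+ replicates 2, 3 and 4 the cuticle means were 7.59, 7.77 and 7.02 and the muscle means 10.4, 10.2 and 10.1. CHD8/+ replicate 1 had 5.69 and 8.91, and the ASH1L/+ and WDFY3/+ libraries had at most 6.05 and 9.76. Results are given with and without CHD2/+ replicate 2.

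Chd1 itself (FBgn0250786, chromosome 2L, 2979562 to 2987723, minus strand) had 204, 106, 99.8 and 162 normalized counts in CHD2/+ heads, against 402, 239.8, 167 and 361 in wild-type heads. The wild-type level exceeded the CHD2/+ level except that CHD2/+ replicate 1 lay above wild-type replicate 3, so the ranges overlapped. Between libraries with the same replicate number, Chd1 was lower in CHD2/+ each time. The main limma fit and the permutation test below take no account of these numbers. The mean was 143 ± 49.4 in CHD2/+ and 292 ± 108 in wild type (SD, n = 4 each), and the mutant mean was 48.9% of the control mean. The log2 change was -1.01 ± 0.43 (SE), with a limma adjusted p of 0.63 over all genes (unadjusted p = 0.0288). A two-sided exact permutation test of this gene gave p = 0.0571, where the smallest value that 70 arrangements allow is 0.0286. Without CHD2/+ replicate 2 the log2 change was -0.89 and the exact p was 0.114. In the other heterozygotes Chd1 had 112 to 481 normalized counts in ASH1L/+, 276 to 459 in WDFY3/+ and 114 to 349 in CHD8/+.

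The genes around Chd1 on 2L showed no common shift. Of 32 other annotated genes that lay at least in part within 100 kb of it, 27 were tested, and 0 passed the adjusted threshold in limma, beside 0.209% of all genes tested. An unadjusted p below 0.05 was reached by the NTPase gene in the positive direction (log2 change 0.52) and Rbp9, which encodes a neuronal RNA-binding protein of the ELAV family, in the negative direction (-0.58). Over all genes tested 4.47% were higher and 2.87% lower at that threshold. The nearest genes CG9643, Bem46 and okr, the last of which encodes the Rad54 recombination protein, had log2 changes of 0.20, 0.27 and 0.21. The median change of the 27 genes was -0.07, with 15 below 0, and Rrp1, a DNA repair nuclease, was the lowest at -1.28 ± 0.68 (SE) and SerRS, a seryl-tRNA synthetase, the highest at 0.57 ± 0.37.

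**Figure D1:**
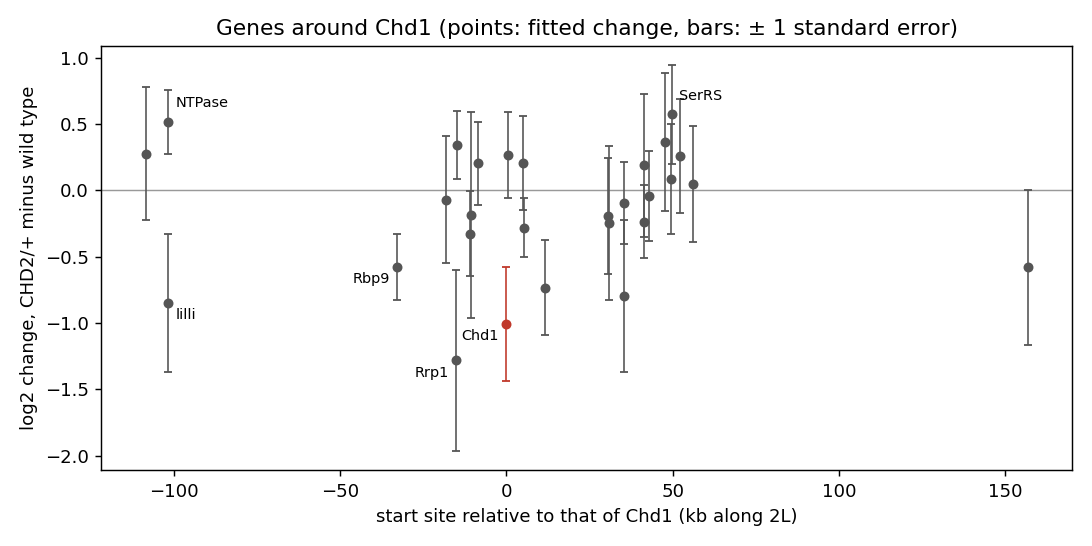
Log2 change of CHD2/+ minus wild type heads (y axis, ± 1 standard error) for each tested gene around Chd1, by the distance of its start site from that of Chd1 in kb (x axis). Chd1 (red) lies at -1.01, and the genes on either side scatter around 0 between -1.28 and 0.57.

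Across all genes, 18 of 8616 were called, or 0.209%, 15 of them higher in CHD2/+ (0.174%) and 3 lower (0.0348%). The higher genes were a cytochrome P450, a sulfatase, a carboxylesterase, a calcium-binding actin regulator, 2 serine protease family members, a lectin, 2 pseudogenes, 2 non-coding RNAs and 4 other coding genes. The lower genes were a lipid phosphatase, the piRNA precursor flamenco and a neuronal cell surface receptor. All 18 had ranges that did not overlap between the genotypes, a property of 3.57% of tested genes in the upward and 2.22% in the downward direction. An unadjusted p below 0.05 was reached by 632 genes (7.34%), 385 up (4.47%) and 247 down (2.87%), and the median change over all genes was -0.00488. Without CHD2/+ replicate 2 the count was 8 (0.0929%), all among the 18, with 6 higher (0.0696%) and 2 lower (0.0232%). At an unadjusted p below 0.05 there were then 393 (4.56%), 237 up (2.75%) and 156 down (1.81%). The count was also lower by more than 1.5 times without CHD2/+ replicate 1 (11 genes) or 3 (7 genes), and without wild-type replicate 2 (10 genes) or 4 (7 genes). When only the 8 libraries were fitted, limma called 7 genes, 5 of them among the 18 (Cyp6a17, CR43105, Swip-1, CG18278 and lncRNA:flam). With libraries weighted by their quality the count was instead higher, at 46. The model of the study had a batch term, but the labels assign no library to a batch, so the main fit had none. With replicate number as a block over the 20 libraries, limma called 109 genes, all 18 included. The labels do not say that a replicate number marks a batch. Libraries with the same number did lie together in part on the principal components of the 20 libraries. On the first (32.8% of the variance), replicate 1 lay at 51.1 to 72.3, but at 8.11 in CHD2/+. On the second (18.3%), replicate 4 lay at 44.1 to 51.8, but at 2.59 in CHD8/+. The count of 18 thus depends on how replicates are treated.

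**Figure D2:**
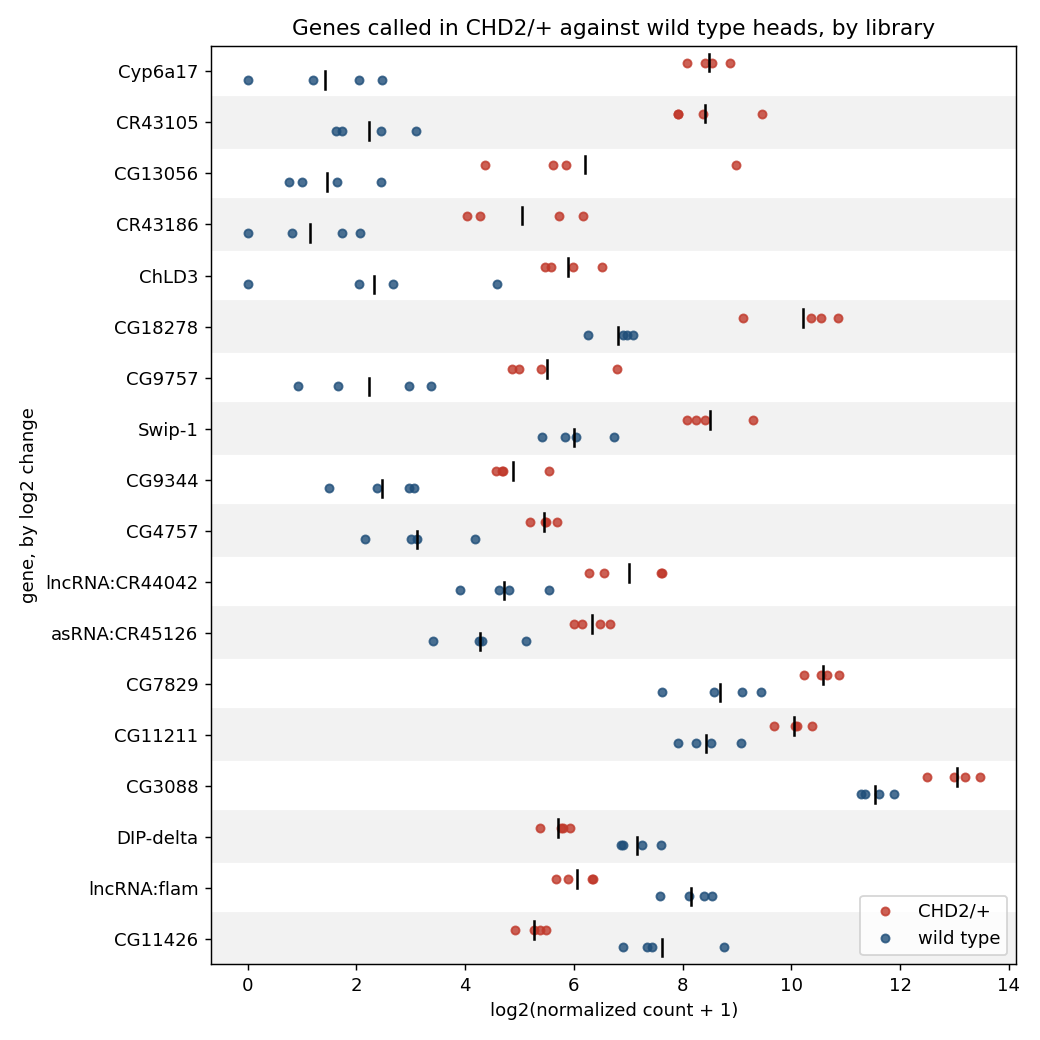
Log2(normalized count + 1) in each library (points) and the group mean (bars) for the 18 called genes, in order of log2 change, with CHD2/+ (red) drawn above wild type (blue). In each gene the 4 CHD2/+ points lie on one side of the 4 wild-type points, from Cyp6a17 with a log2 change of 7.05 to CG11426 with -2.35.

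Several of the called genes encode enzymes. Cyp6a17 (FBgn0015714, 2R, 14873953 to 14875739) encodes a cytochrome P450 that takes part in temperature preference behaviour. It had 268, 339.9, 372 and 469 normalized counts in CHD2/+ and 4.57, 0, 3.13 and 1.29 in wild type. It was thus abundant in every mutant library and close to absent in every control. The log2 change was 7.05 ± 0.46 (SE), or 132-fold, the largest of the 18, with a limma adjusted p of 1.43e-08, and 7.07 without CHD2/+ replicate 2. Its tandem relative Cyp6a23 begins 89 bases downstream and had 89.2, 134, 114.7 and 70.7 in CHD2/+, against 76, 103, 209 and 65.1 in wild type. Those ranges overlapped (log2 change -0.04 ± 0.64). Of the 42 tested detoxification genes Cyp6a17 was the only one called. The glutathione transferase gene GstE2 had the next smallest p, with a log2 change of -1.05 (unadjusted p = 0.0084, limma adjusted p = 0.509).

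CG4757, a member of the carboxylesterase family, had 43.7, 35.5, 43.3 and 50.5 normalized counts in CHD2/+ and 3.44, 17.0, 6.99 and 7.62 in wild type. It rose by 2.35 ± 0.37 on the log2 scale (limma adjusted p = 0.00618), and by 2.44 without CHD2/+ replicate 2. CG18278 (FBgn0033836, 2R, 13408042 to 13409887), a predicted sulfatase, had 1314, 1862, 1492 and 552 in CHD2/+ against 76, 119, 125 and 135 in wild type. The lowest mutant library was still above the highest control. Its log2 change was 3.41 ± 0.56 (limma adjusted p = 0.00798) and 3.20 without CHD2/+ replicate 2.

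CG11426 (FBgn0037166, 3L, 22470556 to 22473509) encodes a predicted phosphatase of lipid phosphates. It had 29.0, 37.7, 40.6 and 43.7 normalized counts in CHD2/+ and 171, 161, 435 and 118 in wild type. The mutant libraries were close together and all below the controls, among which replicate 3 was highest. It fell by 2.35 on the log2 scale (SE 0.31, limma adjusted p = 0.000755), to 0.196 of the wild-type level, and the change was the same to 2 decimals without CHD2/+ replicate 2. CG11426 is among the genes the study names from these samples, so its direction is not independent evidence. CG11425, a gene of the same family that begins 1285 bases further on, was looked at after its values were seen. It had 18.2, 93.5, 155 and 10.3 in CHD2/+, against 0.903, 5.36, 0.781 and 6.68 in wild type. The ranges of CG11425 did not overlap either, in the opposite direction, but it was not called (log2 change 3.56 ± 1.04, limma adjusted p = 0.345). The sum of both genes was 47.2, 131, 196 and 54.0 in CHD2/+, against 172, 167, 435 and 125 in wild type, and these ranges overlapped.

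Swip-1 (FBgn0032731, 2L, 18977519 to 18987280), the fly Swiprosin that binds calcium and regulates actin, had 302, 623, 271 and 339 normalized counts in CHD2/+ against 105, 41.5, 64.4 and 56.0 in wild type. The highest value was in CHD2/+ replicate 2, and every mutant library exceeded every control. The log2 change was 2.50 ± 0.33 (limma adjusted p = 0.000755), or 5.67-fold, and 2.24 without that library. Swip-1 overlaps CG10431 on the other strand over 669 bases. CG10431 had a log2 change of 0.26, which did not pass the test (unadjusted p = 0.607). Of the 18 called genes, 6 overlap an annotated gene on the opposite strand, CG9344 by only 6 bases. The share over all tested genes was not counted, so the 6 cannot be read as a trait of the called genes. The library kit keeps the strand, but whether the counting used it is not given in the sources used here.

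Several of the called genes do not code for protein. The long RNA flamenco (lncRNA:flam, FBgn0267704, X, 21631891 to 21790731) is the precursor of piRNAs that silence gypsy-family transposons in the somatic cells of the ovary, and 47 transposon copies are annotated inside it. It had 79.9, 80.5, 58.4 and 49.6 normalized counts in CHD2/+ and 373, 190.5, 277 and 335 in wild type. All mutant libraries lay below all controls. It fell by 2.10 on the log2 scale (SE 0.36, limma adjusted p = 0.00992) and by 2.20 without CHD2/+ replicate 2. It was not called without CHD2/+ replicate 3 or without wild-type replicate 4, its highest adjusted p over all settings being 0.0592. Reads from its transposon copies can come from other copies in the genome. Of the 9 tested genes of the piRNA and transposon silencing list, flamenco was the only one called, and the next smallest unadjusted p was 0.144, for del, which encodes a partner of Rhino at piRNA loci, at a log2 change of -0.69.

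CR43105 and CR43186 are neighbouring pseudogenes on 2R, 131 bases apart. CR43105 had 241, 329, 704 and 241 normalized counts in CHD2/+ and 4.47, 7.49, 2.34 and 2.06 in wild type (log2 change 6.19 ± 0.69, limma adjusted p = 9.65e-05). CR43186 had 18.2, 71.3, 51.8 and 15.3, compared with 0, 3.19, 2.31 and 0.749 (log2 change 3.90 ± 0.72, limma adjusted p = 0.0198). Both were near the floor in every control. CR43105 was still called without CHD2/+ replicate 2, whereas CR43186 had an adjusted p of 0.0942 there. Pseudogenes can share reads with their parent genes, so which locus the reads came from is uncertain.

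The antisense RNA CR45126, on chromosome 4 (459768 to 461413), had 100.4, 88.4, 69.8 and 63.4 normalized counts in CHD2/+ and 33.8, 9.67, 18.0 and 18.8 in wild type. asRNA:CR45126 rose by 2.05 ± 0.34 on the log2 scale (limma adjusted p = 0.00845). It lies over Taf3, a subunit of the general transcription factor TFIID on the opposite strand, which had a log2 change of -0.64 (unadjusted p = 0.0379) with 808, 475, 661 and 893 in CHD2/+ against 1120, 1110, 1025 and 1037 in wild type. The long RNA lncRNA:CR44042, on 2R (1348167 to 1349167), had 76.2, 194, 193 and 93.1 in CHD2/+ and 23.5, 26.8, 45.3 and 14 in wild type. Its log2 change was 2.29 ± 0.41 (limma adjusted p = 0.0165), and its adjusted p without CHD2/+ replicate 2 was 0.0874.

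Genes of serine protease and lectin families were also among the higher ones. CG3088, of the chymotrypsin-like serine protease family, had 8166, 9366, 11299.6 and 5785 normalized counts in CHD2/+ and 3789, 2619.8, 3114 and 2493 in wild type. CG7829, of the same family, had 1866, 1495, 1610.3 and 1202 in CHD2/+, against 691, 381, 542 and 196 in wild type. CG11211, a C-type lectin family gene, had 1099.7, 1065, 1326 and 813 in CHD2/+, against 364, 303, 539 and 239.7 in wild type. In each the lowest mutant library was above the highest control. They rose by 1.505 ± 0.27, 1.90 ± 0.34 and 1.61 ± 0.31 on the log2 scale (limma adjusted p = 0.0165, 0.0165 and 0.0269). None of these 3 calls held without CHD2/+ replicate 2, where the adjusted p was 0.0757, 0.0666 and 0.0874, and none held after a trend with transcript length was taken out (adjusted p = 0.401, 0.268 and 0.584).

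DIP-delta (FBgn0085420, 3L, 5424109 to 5442399) encodes an immunoglobulin-family receptor that pairs with Dpr proteins on the surface of neurons during circuit wiring. It had 40.5, 54.8, 53 and 59.6 normalized counts in CHD2/+ and 118, 116, 151 and 192 in wild type. The groups were separated by a wide gap. It fell by 1.44 on the log2 scale (SE 0.27, limma adjusted p = 0.022), with an adjusted p of 0.0757 without CHD2/+ replicate 2 and 0.19 after removal of the length trend. In whole heads, fewer cells of a type and less RNA per cell cannot be told apart.

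The remaining called genes were weakly expressed. ChLD3, a chitin deacetylase-like gene, had 43.1, 62.3, 90 and 46.8 normalized counts in CHD2/+ and 23.0, 5.38, 3.14 and 0 in wild type (log2 change 3.56, limma adjusted p = 0.0269). CG13056 had 19.6, 507, 56.8 and 48.2 in CHD2/+ and 2.10, 0.992, 0.701 and 4.48 in wild type, with the highest value in the library with high cuticle genes. Its log2 change was 4.74 ± 0.92 (limma adjusted p = 0.0269) and 3.82 without that library (adjusted p = 0.102). CG9757 had 28.1 to 109 in CHD2/+ and 0.897 to 9.35 in wild type (log2 change 3.28), and CG9344 had 22.7 to 45.7 and 1.82 to 7.32 (2.40). ChLD3, CG13056 and CG9757 were each called in 1 of 8 fits that left out a library, and CG9344 in 0. Cyp6a17, CR43105, Swip-1, CG18278, CG4757, CG11426 and asRNA:CR45126 were called in all 8. In the fit of only the 2 genotypes, however, CG4757, CG11426 and asRNA:CR45126 were not called (limma adjusted p = 0.105, 0.0626 and 0.0979).

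The levels in the other 3 heterozygotes placed these differences. For CG11426, the 12 libraries of ASH1L/+, WDFY3/+ and CHD8/+ heads had 25.8 to 39.2 normalized counts, close to the 29.0 to 43.7 of CHD2/+, and wild type alone stood higher. For Cyp6a17 the 3 other heterozygotes had 140.2 to 742, and wild type alone was near 0. All 4 wild-type libraries lay beyond all 16 heterozygote libraries for 3 called genes, CG11426 (above) and Cyp6a17 and CG9344 (below). Over all tested genes this held for 0.0464% (above) and 0.104% (below). These comparisons share the same 4 wild-type libraries.

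Other called genes followed different sets of genotypes. CR43105 had 241 to 704 normalized counts in CHD2/+, 157 to 1670.3 in ASH1L/+ and 183 to 708 in CHD8/+, but 0 to 7.65 in WDFY3/+, alongside 2.06 to 7.49 in wild type. Swip-1 had 271 to 623 in CHD2/+, 224 to 511 in ASH1L/+ and 239.7 to 436 in CHD8/+, compared with 85.1 to 100.4 in WDFY3/+ and 41.5 to 105 in wild type. CG13056 had 19.6 to 507 in CHD2/+, 14.5 to 88.5 in WDFY3/+ and 18.6 to 601 in CHD8/+, compared with 1.96 to 4.46 in ASH1L/+ and 0.701 to 4.48 in wild type. For flamenco, the order of the means was CHD2/+ (67.1 ± 15.6), CHD8/+ (78.9 ± 40.2), WDFY3/+ (125 ± 22.6), ASH1L/+ (162 ± 61.2) and wild type (294 ± 79.5; SD, n = 4 each), and each neighbouring pair in this order had overlapping ranges.

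**Figure D3:**
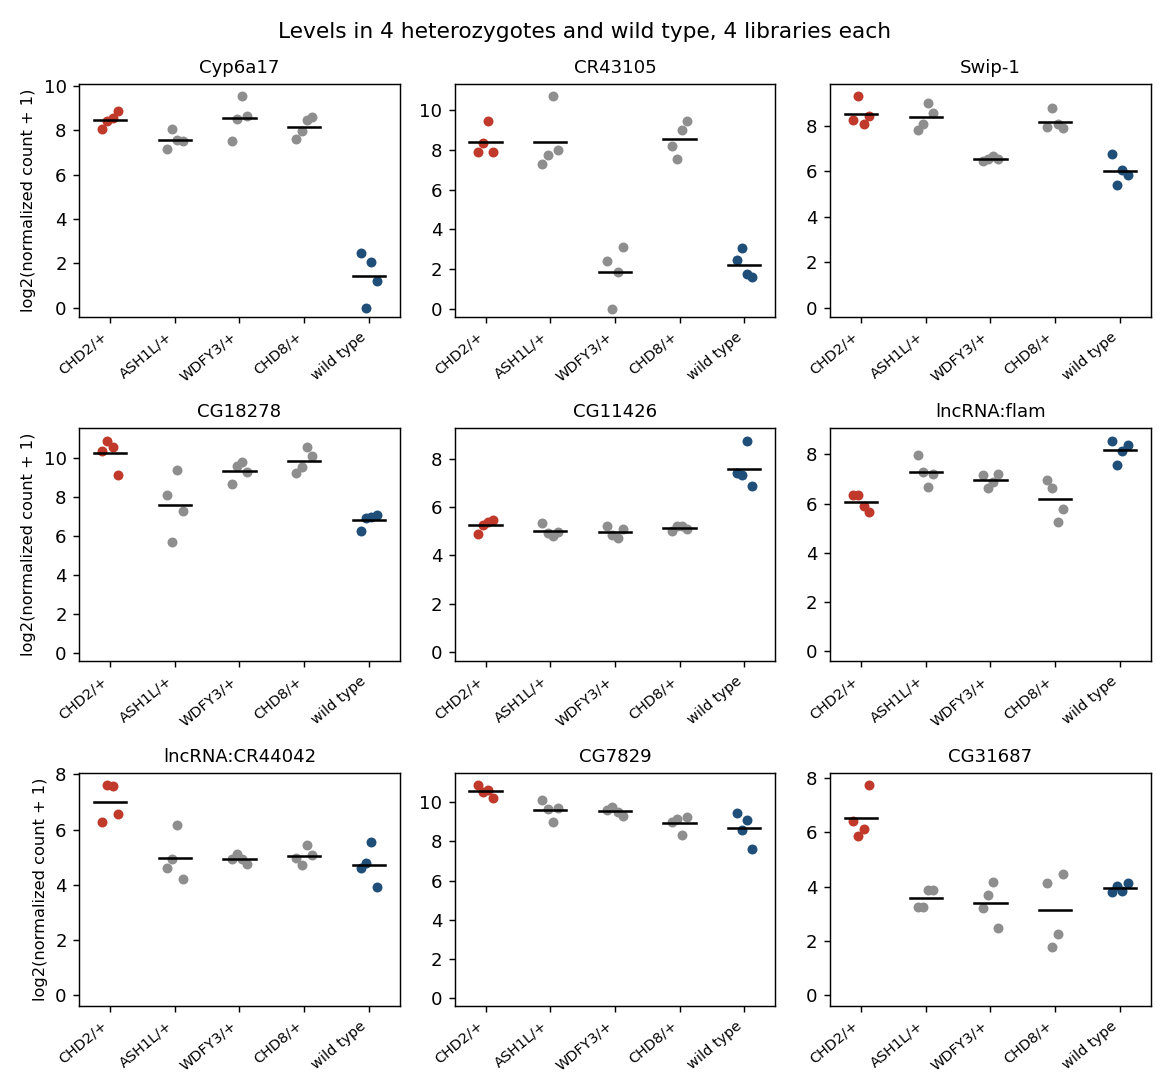
Log2(normalized count + 1) in every library (points) and the mean (bars) of 9 genes in CHD2/+ (red), ASH1L/+, WDFY3/+ and CHD8/+ (grey) and wild type (blue) heads. Wild type stands alone for Cyp6a17 and CG11426, wild type and WDFY3/+ lie together for CR43105 and Swip-1, and CHD2/+ stands alone for lncRNA:CR44042, CG7829 and CG31687.

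Set directly against the other 3 heterozygotes, CHD2/+ differed in 3 genes by limma at the same threshold (0.0348% of 8616), 2 higher (0.0232%) and 1 lower (0.0116%), and 727 genes reached an unadjusted p below 0.05 (8.44%). CG31687 (2L, 20450225 to 20456978) had 84.5, 56.8, 69.0 and 214 normalized counts in CHD2/+ and 2.41 to 21.1 in the 12 other heterozygote libraries. Its log2 change against those heterozygotes was 3.17 ± 0.45 (adjusted p = 0.00671). Against wild type, which had 12.9, 15.1, 13.4 and 16.4, it was 2.59 ± 0.55 and just missed the call (adjusted p = 0.0563). The RNA lncRNA:CR44042 had 17.5 to 70.0 in the other heterozygotes, below all 4 CHD2/+ libraries (log2 change 2.03 ± 0.34, adjusted p = 0.0273).

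lncRNA:CR44645 (2R, 20506195 to 20506895) had 6.62, 1.85, 9.56 and 7.18 normalized counts in CHD2/+ against 13.4 to 39.9 in the other heterozygotes and fell by 1.997 on the log2 scale (SE 0.34, limma adjusted p = 0.0273). Only CR44042 of the 18 genes called against wild type also differed from the other heterozygotes at an adjusted p below 0.05. CG7829 and CG3088 had all 4 CHD2/+ libraries above all 16 others, as did lncRNA:CR44042 and 0.128% of tested genes, but with adjusted p of 0.363 and 0.172 against the heterozygotes. The count of 3 became 1 without CHD2/+ replicate 2 and 0 without CHD2/+ replicate 4, where 813 genes had an unadjusted p below 0.05.

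The change also varied with transcript length. With genes split into 4 classes of like size by their longest annotated transcript (available for 97.8% of tested genes), the median log2 change was 0.42, 0.11, -0.10 and -0.35 going towards longer transcripts. In the shortest class 80.1% of genes had a change above 0, and in the longest 17.9%, compared with 49.6% over all genes. Without CHD2/+ replicate 2 the medians were 0.35, 0.12, -0.07 and -0.29. The mean log2 level of the shortest minus the longest class was -0.81, 0.24, 0.45 and -0.84 in CHD2/+ replicates 1 to 4 and -1.57, -0.86, -0.28 and -1.22 in wild type. CHD2/+ replicates 2 and 3 lay above all wild-type libraries, and replicates 1 and 4 lay within the wild-type range. Each CHD2/+ library lay above the wild-type library with the same replicate number. ASH1L/+ replicate 3 (0.37), WDFY3/+ replicate 3 (-0.20) and CHD8/+ replicates 3 (-0.04) and 4 (0.085) also lay above all wild-type libraries. The rest of the other heterozygote libraries had -1.93 to -0.66. Of the 18 called genes, 9 fell into the shortest class and 2 into the longest. After the trend with length was taken out 19 genes were called, 13 of them among the 18. Besides CG3088, CG7829, CG11211 and DIP-delta, the fifth lost call was CG9344, at an adjusted p of 0.115. The part of transcript length in the list results that follow was not tested beyond this removal.

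**Figure D4:**
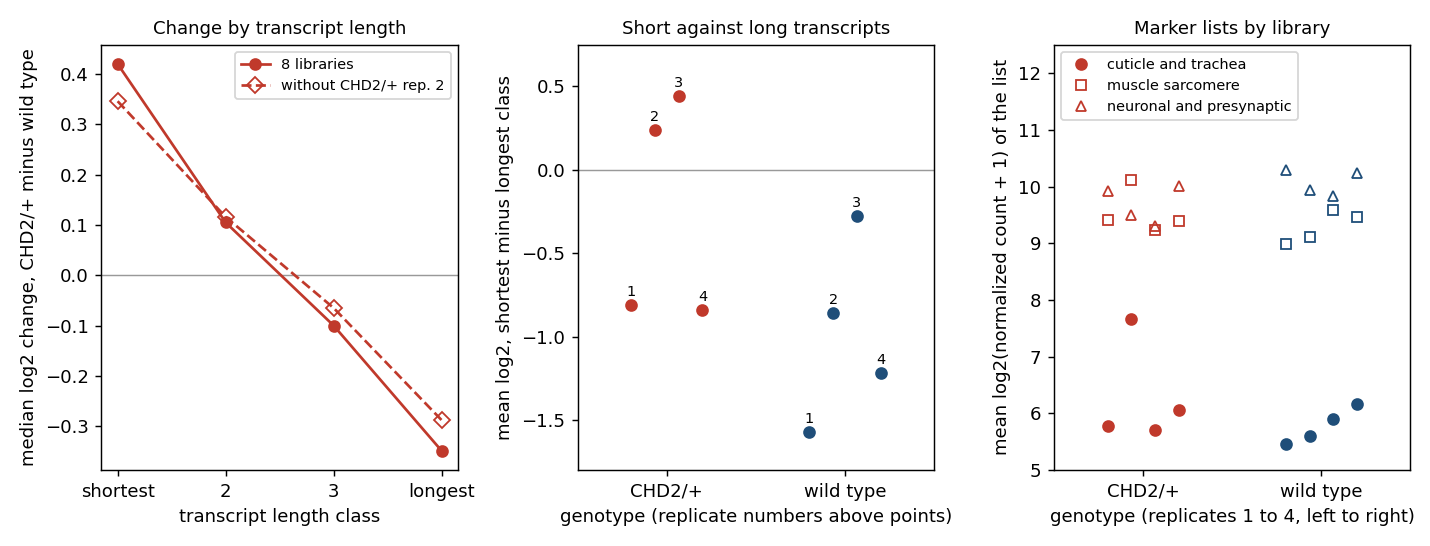
Left, the median log2 change of CHD2/+ minus wild type by class of transcript length, with and without CHD2/+ replicate 2. Middle, the mean log2 level of the shortest minus the longest class in each library. Right, the mean log2 level of cuticle, muscle and neuronal lists in each library. The median change is 0.42 in the shortest and -0.35 in the longest class, and the cuticle mean of 7.67 in CHD2/+ replicate 2 stands above the other 7 libraries.

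Chromatin genes other than Chd1 were examined first among the gene lists. Of 28 tested chromatin remodelers 0 were called, and 1 was higher and 2 lower at an unadjusted p below 0.05, Chd1 being one of the lower. Over all genes 4.47% were higher and 2.87% lower at that threshold. Without CHD2/+ replicate 2 the counts were 2 higher and 0 lower. The median log2 change of these remodelers was -0.34, compared with -0.00488 over all genes, and -0.07 after removal of the length trend. Chrac-14, a histone-fold subunit of the CHRAC remodeling complex, had 20.4, 21.9, 32.0 and 17.3 normalized counts in CHD2/+ and 8.66, 9.57, 6.17 and 8.25 in wild type. Its ranges did not overlap, and its log2 change was 1.36 (unadjusted p = 0.0111, limma adjusted p = 0.543). Iswi, the motor of that complex, had 35.1, 9.46, 24.1 and 41.7 in CHD2/+ against 117, 47.4, 28.3 and 66.6 in wild type, with a log2 change of -1.20 (limma adjusted p = 0.651).

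Lists of histone variant, transcription elongation and trithorax and Polycomb group genes gave few single-gene differences. Of 14 histone variant and chaperone genes and 27 transcription elongation genes, 0 reached an unadjusted p below 0.05 in limma, beside 7.34% of all genes, and 0 were called. Their medians were -0.10 and -0.30, and -0.10 and -0.07 with the length trend removed. Histone variant genes had a positive median, 0.12, without wild-type replicate 1. Of 36 trithorax and Polycomb group genes 0 were called, with a median of -0.36 (-0.08 with the length trend removed). In this list psq, which encodes a BTB-domain DNA-binding protein, had a log2 change of -0.89 (unadjusted p = 0.018), and esc, a subunit of PRC2, one of 1.33 (unadjusted p = 0.0482). Neither was below 0.05 without CHD2/+ replicate 2.

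Most neuronal genes had lower values in CHD2/+, by a smaller margin once the length trend was removed. Of 32 neuronal and presynaptic genes 26 had a change below 0 and 6 above, with a median of -0.43, but 0 were called and 4 reached an unadjusted p below 0.05, all with negative changes, beside 2.87% of all genes. Without CHD2/+ replicate 2 the count was 1, beside 1.81% of all genes. With the length trend removed it was 2, and 18 of the 32 genes had a change below 0. The RNA-binding protein gene elav, the standard neuronal marker, had 997, 622, 929 and 870.2 normalized counts in CHD2/+ and 1673, 1135, 1225 and 2369 in wild type. Its ranges did not overlap, and its log2 change was -0.86 ± 0.37 (unadjusted p = 0.0288, limma adjusted p = 0.63). The GABA synthesis gene Gad1 had 291, 148, 37.4 and 76.2 in CHD2/+ against 368, 235, 292 and 244 in wild type, with overlapping ranges and a log2 change of -1.40 (limma adjusted p = 0.643). The monoamine transporter gene Vmat had a log2 change of -0.92 and the SNARE gene Syx1A one of -0.78. Neuronal transcripts are long, with a median of 5922 bases for the list, and the median change was -0.07 with the length trend removed and -0.31 without CHD2/+ replicate 2.

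The mean log2 level of the neuronal list was 9.93, 9.50, 9.31 and 10.004 in CHD2/+ and 10.3, 9.94, 9.84 and 10.2 in wild type, with overlapping ranges. The study addressed presynaptic homeostatic plasticity, the adjustment of transmitter release to a loss of receptor function. Of 26 tested genes with a role in it 0 were called and 1 reached an unadjusted p below 0.05, beside 7.34% of all genes. Their median change was -0.44, or -0.14 with the length trend removed. The small GTPase gene Cdc42 had the smallest p, with 199, 226, 231 and 131 normalized counts in CHD2/+ and 368, 251, 317 and 317 in wild type (log2 change -0.69, unadjusted p = 0.00971, limma adjusted p = 0.523). Of 5 tested genes that the study names, CG11426 was called. The peptidase-like gene Nepl21 had 97.8 to 126 in CHD2/+ and 153 to 362 in wild type, without overlap. It was not called here (log2 change -0.99, limma adjusted p = 0.635). The study, by a model with a batch term, reports both Nepl21 and CG11426 as lower in every single heterozygote it sequenced.

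Short-transcript lists lay on the other side. Of 65 tested oxidative phosphorylation genes 62 had a change above 0, with a median of 0.63, 7 at an unadjusted p below 0.05 with positive changes, beside 4.47% of all genes, and 0 called. Without CHD2/+ replicate 2 the count was 1 gene at that threshold, beside 2.75% of all genes. The complex I subunit gene ND-B17.2 had 1061, 2039, 2226 and 1357 normalized counts in CHD2/+ and 504, 627, 995 and 795 in wild type (log2 change 1.175, unadjusted p = 0.011, limma adjusted p = 0.543), and its ranges did not overlap. The list median was 0.42 without CHD2/+ replicate 2 and 0.23 with the length trend removed, where 50 of 65 genes stayed above 0. The mean log2 level of the list was 9.91, 11.1, 10.9 and 10.3 in CHD2/+ against 9.42, 9.92, 10.3 and 10.03 in wild type, with overlapping ranges.

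Of 79 cytosolic ribosomal protein genes 65 had a change above 0, with a median of 0.43, and 0 were called. An unadjusted p below 0.05 was reached by 4, all with positive changes, beside 4.47% of all genes. RpL37A had 11172, 11335, 15912 and 8064 normalized counts in CHD2/+ and 5517, 4261, 5333 and 4715 in wild type, without overlap (log2 change 1.20, unadjusted p = 0.00377, limma adjusted p = 0.401). With the length trend removed the median was 0.01 and 40 of 79 genes were above 0. Of 32 proteasome genes 0 were called or reached an unadjusted p below 0.05, and the median of 0.34 became -0.01 with the length trend removed.

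Immune genes were mixed. Of 25 tested antimicrobial and immune effector genes 0 were called and 3 reached an unadjusted p below 0.05, beside 7.34% of all genes, and 0 did so without CHD2/+ replicate 2. The median log2 change was 0.64, or 0.57 without that library and 0.02 with the length trend removed. The defensin gene Def had 28.9, 152, 57.0 and 40.6 normalized counts in CHD2/+ and 28.4, 20.7, 3.48 and 13.9 in wild type (log2 change 2.003, limma adjusted p = 0.606). The metchnikowin gene Mtk had 491, 309, 580.4 and 173 in CHD2/+ and 171, 77.7, 178 and 0 in wild type (log2 change 3.16, limma adjusted p = 0.653), so only its highest control overlapped the mutant range. Dso1, a target of the Toll pathway that encodes a Daisho peptide, had 6249.9 to 25133 in CHD2/+ and 14267 to 54222 in wild type, with a log2 change of -1.37 (limma adjusted p = 0.571). Among 27 recognition and signalling genes the beta-glucan receptor gene GNBP3 had the smallest unadjusted p in limma (0.00335, log2 change -1.20). Of the 27, 5 were below 0.05 unadjusted, 2 higher and 3 lower, beside 7.34% of all genes, and 0 were called.

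In the eye, phototransduction genes had values on both sides. Of 28 photoreceptor genes 0 were called and 16 had a change below 0. At an unadjusted p below 0.05 in limma, 1 was higher and 3 were lower, beside 4.47% and 2.87% of all genes. The median was -0.20 (0.04, and so of the opposite sign, with the length trend removed). The phospholipase C gene norpA had 8473, 5468, 5170.4 and 8597 normalized counts in CHD2/+ and 13223, 11392, 10676 and 13681 in wild type, without overlap (log2 change -0.85, unadjusted p = 0.0112, limma adjusted p = 0.547). The gene of its scaffold, inaD, had 762, 549, 810.2 and 757 in CHD2/+ against 1547, 1014, 1253 and 1841 in wild type (log2 change -0.95, limma adjusted p = 0.575). santa-maria, a scavenger receptor needed to make the visual chromophore, had 389, 579.9, 597 and 314 in CHD2/+ against 385, 48.4, 139.7 and 93.1 in wild type (log2 change 1.85, limma adjusted p = 0.261).

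Markers of other head tissues gave no calls. Of 14 tested cuticle and trachea genes (of 33 listed) 0 were called or reached an unadjusted p below 0.05 in limma, and the median log2 change was 0.52 with all libraries and 0.09 without CHD2/+ replicate 2. Of 23 muscle genes 0 were called, and the median was -0.06 (0.19, of the opposite sign, with the length trend removed). Of these genes 2 reached an unadjusted p below 0.05, both with positive changes, beside 4.47% of all genes. Without CHD2/+ replicate 2 the count was 1, beside 2.75% of all genes. The flight muscle gene fln had 86, 195, 286 and 179 normalized counts in CHD2/+ and 21.8, 30.1, 44.6 and 78.1 in wild type, without overlap (log2 change 2.11, unadjusted p = 0.00223, limma adjusted p = 0.31). Its change without CHD2/+ replicate 2 was 2.05. The haemocyte receptor gene NimC1 had 32.8, 26.9, 19.8 and 13.8 in CHD2/+ and 2.62, 4.08, 8.95 and 3.37 in wild type (log2 change 2.13, limma adjusted p = 0.264), while the list of 12 haemocyte genes had a median of -0.05 (0.08 with the length trend removed). Of 11 corneal lens and eye pigment genes 9 had a change above 0, with a median of 0.38, or 0.22 without CHD2/+ replicate 2, which had the highest mean log2 level of this list among the 8 libraries (7.80), and 0.17 with the length trend removed. The cuticular protein gene Cpr72Ec had the smallest p (log2 change 1.37, unadjusted p = 0.00878, limma adjusted p = 0.515).

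Insulin and feeding genes, fat body genes, clock genes, heat shock genes, glial genes and yolk and sex-linked genes had medians between -0.18 and 0.10. Of their 125 tested genes limma called 0, with 8 at an unadjusted p below 0.05, beside 7.34% of all genes. The insulin and feeding median changed sign without CHD2/+ replicate 4 (0.04), the clock median with the length trend removed (0.11), the heat shock median without wild-type replicate 1 (0.14) and the glial median without CHD2/+ replicate 1 (-0.003). In the insulin list, the gene of the insulin-like peptide Ilp3 had 75.6, 129.8, 161 and 54.5 normalized counts in CHD2/+ and 33.8, 38.5, 82.4 and 32.7 in wild type (log2 change 1.14, unadjusted p = 0.0299, limma adjusted p = 0.631). Its ranges overlapped.

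**Figure D5:**
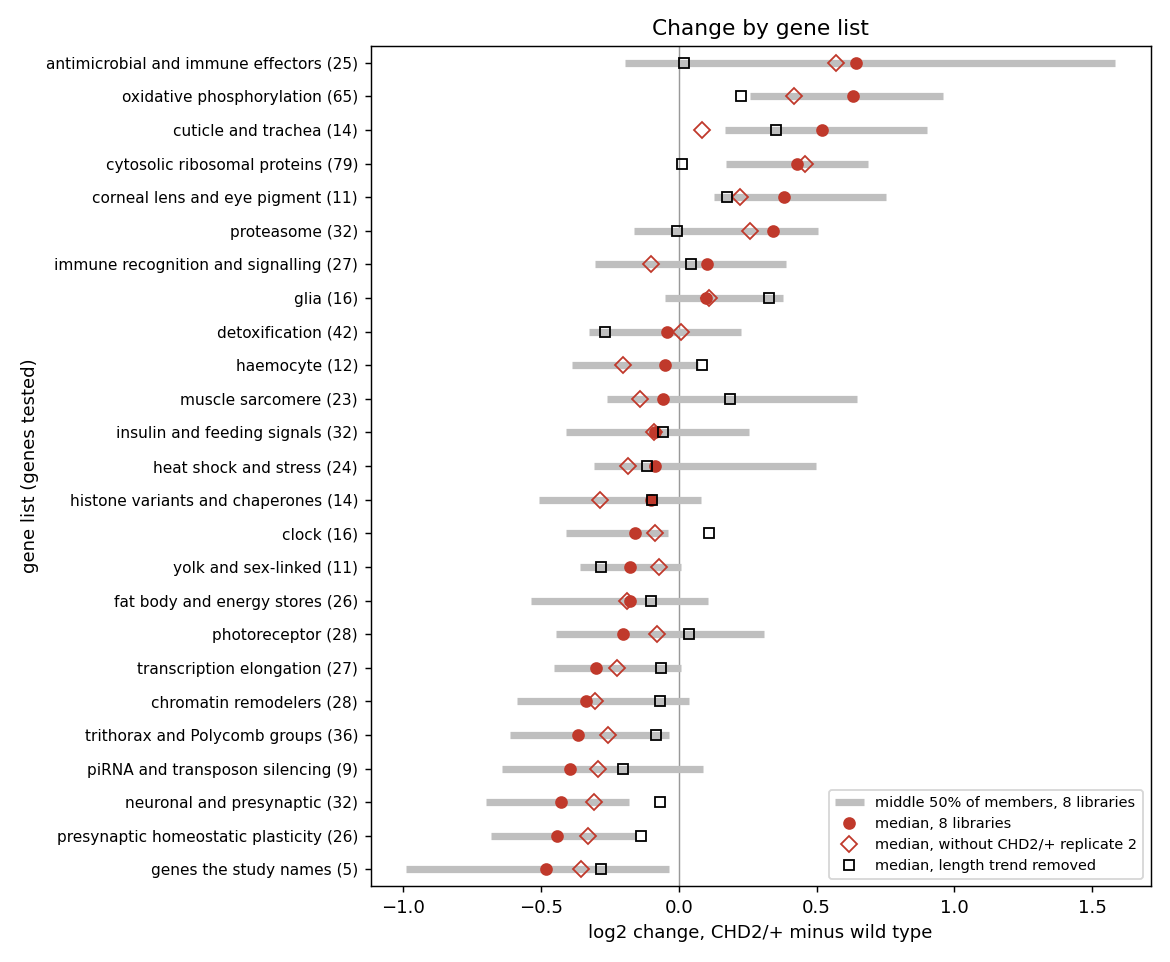
Median log2 change of CHD2/+ minus wild type for each gene list with its number of tested genes (filled circles), the middle 50% of members (grey bars), the median without CHD2/+ replicate 2 (diamonds) and with the length trend removed (squares). Oxidative phosphorylation moves to 0.23, ribosomal proteins to 0.01 and neuronal genes to -0.07 when the trend is removed.

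The called genes were spread over the chromosome arms. Arm 2L, which carries Chd1, held 2 called genes of 1535 tested (0.13%), 2R held 7 of 1732 (0.404%), 3L held 4 of 1563 (0.256%), 3R held 3 of 2065 (0.145%), X held 1 of 1427 (0.0701%), and chromosome 4 held 1 of 83 (1.2%). The median change per arm lay between -0.04 and 0.06.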

How the data were processed

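Per the labels and the methods of the study, 3′ mRNA libraries (Lexogen kit) were quantified by the authors with Salmon 0.12.0 on BDGP6 transcripts, collated per gene with tximport and normalized, DESeq2 being named for the comparison. The deposited values are thus normalized signal (counts divided by factors of each library and gene), not raw counts, so a count model was not used. Of 17559 genes, 17253 were matched to a symbol and a position in the Ensembl annotation of BDGP6.54. A value of 1 was added before log2. limma 3.58.1 (R 4.3.3) was fitted with 1 mean per genotype over 20 libraries of 5 genotypes, with a variance trend, and the code was tested on simulated data. Genes were filtered at 10 or more in 4 or more of the 8 libraries. Alternatives covered left-out libraries, the 2 genotypes alone, replicate blocks, scaling, pseudocounts, filters, library weights and transcript length. Precision rests on 4 libraries a group. The members, gene lists and tests were chosen with earlier results of these data known. Named were Chd1, all called genes, the tested genes within 100 kb of Chd1 and up to 4 genes a list with the smallest p. The 26 lists include a gut list of which 0 genes were tested.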

Additional observations from a re-analysis of the deposited data

Results flagged for a closer look

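In CHD2/+, CG9344 had 1 value far from the others: replicate 3, at 45.7 normalized counts, stood above 22.7, 24.6 and 24.8, and its gap to the next value was 0.876 of the whole range on the log2 scale. It was the only such case in 50 groups of 4 libraries looked at, and chance gives about 1 in 20 such groups. In 3 genes the difference of CHD2/+ from wild type was unlike that of the other 3 heterozygotes by the limma test of this difference: CG31687 by 3.17 on the log2 scale, lncRNA:CR44042 by 2.03 and lncRNA:CR44645 by -1.997 (limma adjusted p = 0.00671, 0.0273 and 0.0273).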

How the results depend on the processing

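No value changed sign among those past the threshold. Single genes were counted once per setting and comparison. They were Chd1, the called genes and up to 4 genes a list with an unadjusted p below 0.05. Direction and call status were kept in 1428 cases, the call was lost in 104 and gained in 24. The 1428 include genes not called in the main fit. Of the 18, Cyp6a17, CR43105, Swip-1 and CG18278 kept the call in every alternative that tested them, and CG9344 in 6 of 21. The 18 genes called against wild type became 7 in the fit of the 8 libraries alone, 9 when 10 counts were required in all 8, and 46 with library weights, and 7 to 17 when 1 library was left out. The 3 genes called against the other heterozygotes became 0 to 3 when 1 library was left out. Chd1 ranged between -1.25 and -0.83 with 1 library left out, was -0.63 with the length trend removed, and was called under 0 settings. The correlation of deviations between libraries with the same replicate number was 0.34, 0.02, 0.31 and 0.44, so pair 2 missed the 0.1 required to treat numbers as pairs. With a replicate block over the 20 libraries the 18 became 109 (81 higher and 28 lower, all 18 included) and the 3 became 18. With the length trend removed as well as the replicate block they became 83 and 7. The block over the 8 libraries alone gave 22. CHD2/+ replicate 2 correlated best with wild-type replicate 3 (0.16). The alternatives on transcript length were chosen after seeing the data. The causes of these differences were not tested. Depth, only roughly estimated (2790000 reads in the shallowest library), limits genes near 10 counts.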
